A study of Mus musculus with 12 samples.

Results

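The AMPA, NMDA and kainate receptor subunits described here are 10 genes, 4 AMPA (Gria1 to Gria4), 4 NMDA (Grin1, Grin2a, Grin2b and Grin2d) and 2 kainate (Grik2 and Grik5), chosen by their symbols from a table of 27179 genes. All 10 had enough reads to be tested, among 15298 genes tested. Cortex RNA of mice was sequenced from 3 genotypes with 4 libraries each. Wild-type mice (Grn+/+, WT) kept both copies of the mouse progranulin gene, which encodes a secreted glycoprotein that reaches lysosomes. Null mice (Grn-/-, KO) lacked it. Humanized mutant mice (Grn-/-;GRNmEx5, MUT) lacked mouse Grn as well, in a line designed to carry a deletion in human GRN, the gene mutated in a form of frontotemporal dementia. The labels name no promoter, copy number or founder for the GRNmEx5 allele, and human GRN was not analysed here. The WT animals were 287 days (replicate 1) and 375 days (replicates 2, 3 and 4) old, the MUT animals 272 to 309 days and the KO animals 282 to 308 days. Female is the labelled sex of WT replicate 1, MUT replicates 1, 2 and 4 and KO replicates 3 and 4, and the other libraries are labelled male. The labels do not say that the libraries came from separate animals, so a p-value here measures spread between libraries, which may be technical.

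Glutamate is the main excitatory transmitter of the cortex, and its ionotropic receptors are cation channels built from 4 subunits. AMPA receptors carry the fast part of the synaptic current, NMDA receptors open when glutamate and a co-agonist are bound and the membrane is depolarized, and kainate receptors act on both sides of the synapse. An NMDA receptor needs the subunit encoded by Grin1, and the Grin2 genes encode its partners, while RNA editing of Gria2 makes AMPA receptors that contain it nearly impermeable to calcium.

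The promoters of Grin1, Gria2 and Grik5 are shown because these genes lead the NMDA, AMPA and kainate subunits among the 10 in level. Sequences are from RefSeq (GRCm38.p6), which matched 6 of the 10 genes, and run 5′ to 3′ on the gene's strand from 250 bases before the transcription start to 30 after it. Capitals mark the GC box GGGCGG, the site of Sp1-type factors, and the core of the site of NRF1 (nuclear respiratory factor 1), each searched on both strands.
Grin1, chr2:25319158-25319437, minus strand: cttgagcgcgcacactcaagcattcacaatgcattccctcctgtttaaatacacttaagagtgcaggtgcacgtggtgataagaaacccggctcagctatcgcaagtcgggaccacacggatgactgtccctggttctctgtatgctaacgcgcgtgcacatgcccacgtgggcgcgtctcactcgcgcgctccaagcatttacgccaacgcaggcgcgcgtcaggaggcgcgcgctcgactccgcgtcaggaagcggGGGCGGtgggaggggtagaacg
Gria2, chr3:80802806-80803085, minus strand: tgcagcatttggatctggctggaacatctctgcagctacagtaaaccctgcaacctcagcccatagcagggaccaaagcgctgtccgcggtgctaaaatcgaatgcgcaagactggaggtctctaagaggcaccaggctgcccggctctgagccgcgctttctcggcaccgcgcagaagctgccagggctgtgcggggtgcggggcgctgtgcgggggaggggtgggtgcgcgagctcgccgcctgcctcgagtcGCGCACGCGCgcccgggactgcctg
Grik5, chr7:25072340-25072619, minus strand: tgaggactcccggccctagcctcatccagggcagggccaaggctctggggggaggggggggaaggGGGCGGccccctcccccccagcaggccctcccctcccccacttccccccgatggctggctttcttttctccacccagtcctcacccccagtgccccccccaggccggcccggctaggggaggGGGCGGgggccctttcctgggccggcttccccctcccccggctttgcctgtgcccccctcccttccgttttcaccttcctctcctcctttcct
The Grin1 window held 1 GC box, the Grik5 window 2 GC boxes and the Gria2 window 1 NRF1 core. Over 27025 promoters of 300 bases (50 after the start), 35.91% held a GC box and 4.78% an NRF1 core. None of the 6 promoters held the cyclic AMP response element TGACGTCA, found in 1.88% of all promoters, or the TATA box TATAAA, found in 14.16%. Their GC content was 56.0% to 72.0%, against a median of 52.7% over all promoters. A match of letters is a description of the window and not a bound site.

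Grn checked the genotype labels. It measured 58.0 ± 1.35 CPM (read counts scaled to the library total and the TMM factor; mean ± SD, n = 4) in WT, 13.5 ± 1.59 in MUT and 12.8 ± 1.38 in KO, and fell in both null groups (log2 fold change -2.20 in KO and -2.15 in MUT, edgeR adjusted p = 4.78e-08 and 6.73e-08). Library totals were 16381221 to 20782195 counts. Transcripts of sex-linked genes ran against the labelled sex in all 12 libraries, which leaves the sex term of the model the same. Slc17a7, the vesicular glutamate transporter of cortical excitatory neurons, was abundant in every group (means of 1479 to 1666 CPM). None of the 10 inhibitory neuron markers was at 0, and their summed level was 1159 to 1398 CPM over the 12 libraries. Markers of 3 neighbouring tissues varied between libraries. The 15 striatal markers (14 of them tested) summed to 413, 720.3, 1197 and 2189 CPM in WT replicates 1 to 4, 362 to 462 in MUT and 373 to 519 in KO. The 8 hippocampal markers summed to 136 to 178 CPM in WT, 103 to 262 in MUT and 174 to 283 in KO. The 12 choroid plexus markers (8 of them tested) summed to 679.97 CPM in WT replicate 4, 1433 in MUT replicate 1 and 2035 in KO replicate 3, and to 9.44 to 55.5 in the others. In bulk tissue, fewer cells of a type and less RNA per cell cannot be told apart.

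Among the 10 subunits, Grin1 was the most abundant transcript per length and Grin2a the least. Levels were set between genes as CPM per kilobase of counted exon. Grin1 measured 169 ± 9.28 CPM per kb (mean ± SD over 12 libraries), Gria2 110.2 ± 7.75, Gria1 83.2 ± 12.7, Grik5 72.6 ± 4.999, Gria3 65.9 ± 5.92, Gria4 22.3 ± 1.48, Grik2 9.999 ± 0.983, Grin2b 5.85 ± 2.57, Grin2d 4.21 ± 0.521 and Grin2a 1.45 ± 0.640. In 12 of 12 libraries Grin1 exceeded Gria2, Gria2 exceeded Gria1, Gria3 exceeded Gria4 and Gria4 exceeded Grik2, and Grik2 exceeded Grin2b in 11 of 12. Gria1 exceeded Grik5, and Grik5 exceeded Gria3, in 10 of 12, so these neighbours overlapped. Grin2b exceeded Grin2d in 7 of 12, so their order was not set beyond the spread. Of the AMPA transcripts per length, Gria2 made up 39.1%, Gria1 29.5%, Gria3 23.4% and Gria4 7.95%. Of the 4 NMDA transcripts, Grin1 made up 93.6%, Grin2b 3.25%, Grin2d 2.34% and Grin2a 0.803%, and of the 2 kainate transcripts Grik5 made up 87.9% and Grik2 12.1%. NMDA and kainate genes outside the 10 were left out of these shares. Among them, Grin2c had group means of 63.7 to 75.1 CPM, above those of Grin2b (34.1 to 57.9). Grik3, also left out, had 139 to 172 CPM, above Grik2 (47.9 to 50.2). The counted exons may miss part of the transcript of some genes. The GENCODE M21 annotation places 16562 bases of Grin2b and 9812 of Grin2a beyond the 3′ end of the counted exons, 4630 of Grik2, 3486 of Gria2, 600 of Grin2d and none of the other 5. The per-length levels of Grin2a and Grin2b therefore rest on 4512 and 7515 counted bases, and the part of this gap in their low place was not tested.

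**Figure D1:**
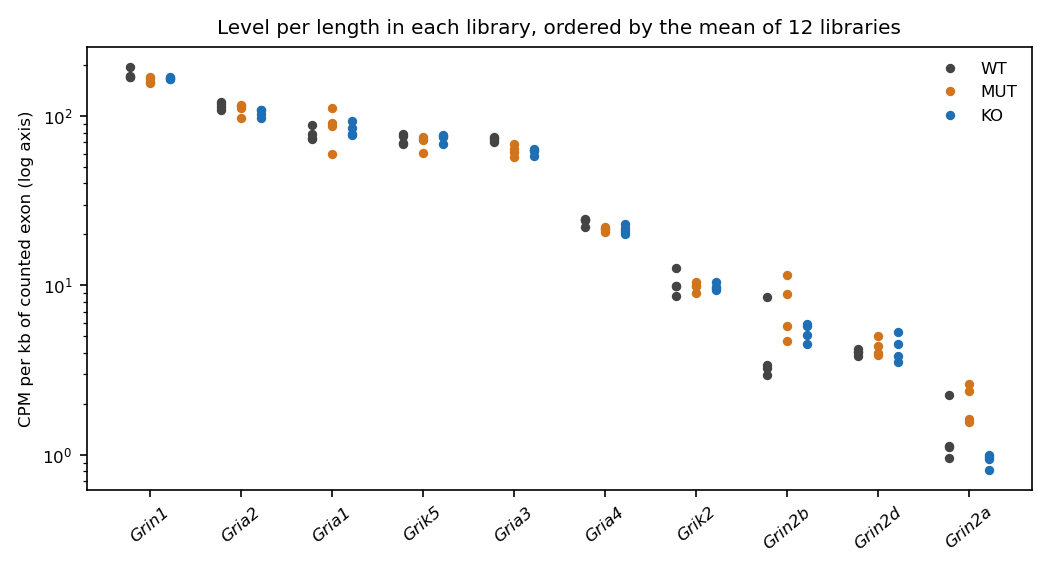
Level of each subunit in CPM per kilobase of counted exon (log axis), 1 point per library, coloured by group and ordered by the mean of 12 libraries. Grin1 lies at the top at 169 CPM per kb and Grin2a at the bottom at 1.45, and the points of Grin2b and Grin2d overlap.

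KO was compared with WT to ask what followed the loss of mouse Grn, and none of the 10 subunits passed an adjusted p of 0.05 in edgeR. Across all genes tested 75 passed, or 0.490%. At an unadjusted p under 0.05, 3 of the 10 passed (Gria2, Gria3 and Gria4, each lower in KO), against 17.6% of all genes. DESeq2 called 1 of the 10 (Gria3) among 647 genes in all, and limma-voom none among 52. In MUT against WT none of the 10 passed in edgeR, DESeq2 or limma-voom, which called 2, 52 and 2 genes in all (0.0131% of all genes in edgeR), and 2 (Gria3 and Gria4, both lower) had an unadjusted p under 0.05, against 10.9%. Between MUT and KO none passed in any of the 3 tools, which called 1, 15 and 1 genes in all (0.00654% in edgeR), and 1 (Grin2a, higher in MUT) had an unadjusted p under 0.05, against 5.67%. The median log2 fold change of the 10 was -0.06 in KO against WT, -0.04 in MUT against WT and 0.02 in MUT against KO, beside 0.00469, 0.00359 and -0.00398 over all genes tested. KO and MUT share the WT libraries, so the 2 comparisons with WT are not independent.

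**Figure D2:**
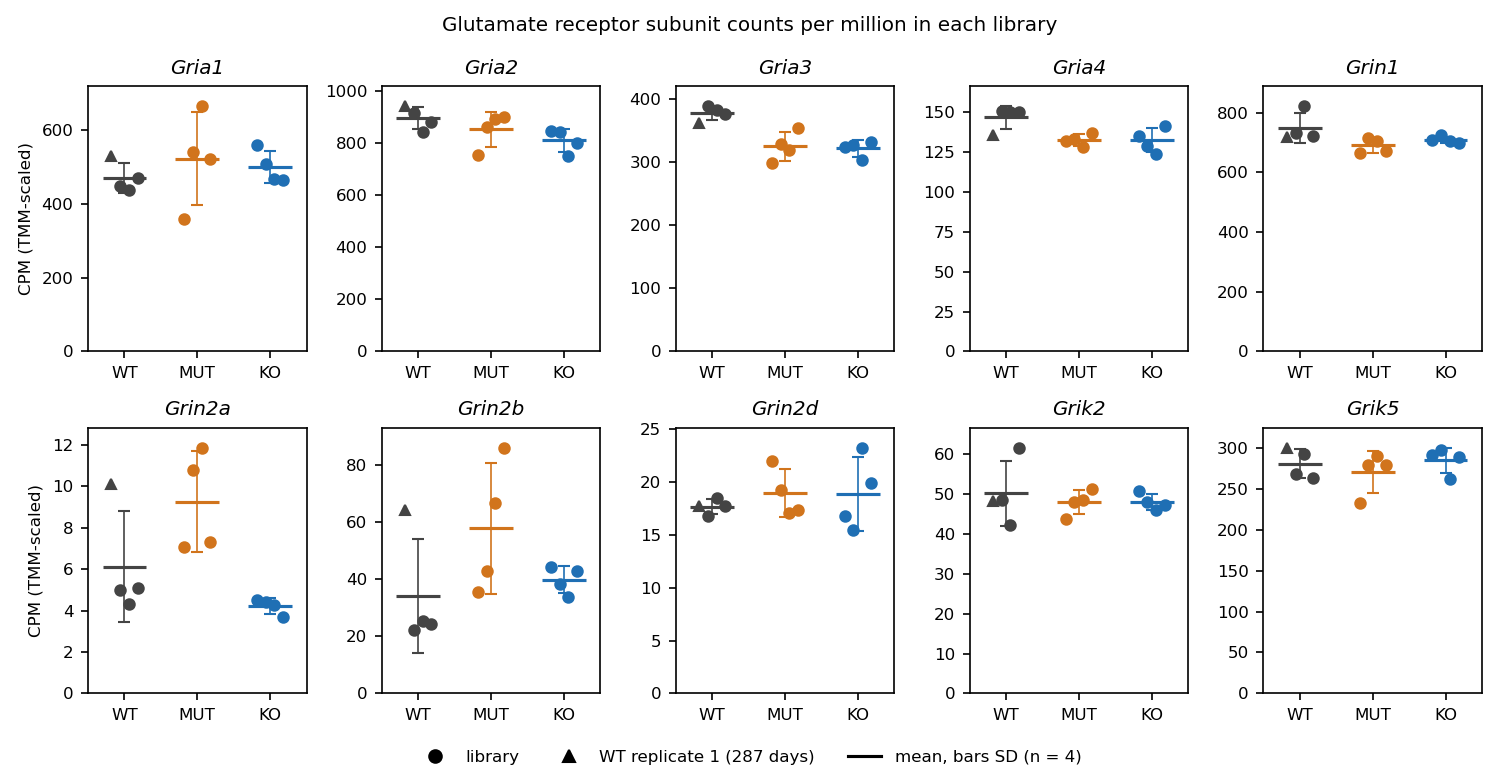
CPM of each subunit in each library, with the group mean and SD (n = 4); WT replicate 1, the only WT library of 287 days, is drawn as a triangle. The KO and MUT libraries of Gria3 lie at 299.5 to 354 CPM, below all 4 WT libraries, and WT replicate 1 stands far above the other WT libraries in Grin2a and Grin2b.

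Among the AMPA subunits, Gria3 had the lowest adjusted p of the 10 in KO against WT. Gria3 (Entrez 53623, mm10 chromosome X, 41401304 to 41678601, plus strand, 16 counted exons) encodes GluA3, which assembles with GluA2 in cortical neurons. It measured 363, 390.1, 384 and 376 CPM in WT, 299.5, 329.8, 319 and 354 in MUT and 325, 327, 303 and 333 in KO. Every MUT and every KO library lay below every WT library, an order without overlap that 3.72% of all genes tested showed downward in MUT and 4.82% in KO. Against WT, KO differed by -0.23 on the log2 scale (SE 0.05, 95% interval -0.34 to -0.11, edgeR adjusted p = 0.0794) and MUT by -0.20 (SE 0.06, -0.33 to -0.08, adjusted p = 0.391). MUT and KO differed in Gria3 by 0.02 (95% interval -0.10 to 0.14, adjusted p = 0.996). The KO difference kept its sign in all 31 alternatives. It passed the threshold with DESeq2 (adjusted p = 0.00709), without the sex term (0.0437), in libraries labelled male and without WT replicate 1 (0.0306). In the male subset and without WT replicate 1, every WT library left was 375 days old and no KO library was older than 308 days. With age in place of sex the KO difference was -0.20 (adjusted p = 0.798), and with sex and age -0.20 (0.581). In animals under 310 days, with WT replicate 1 as the only WT library, it was -0.18.

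Gria4 (Entrez 14802, chromosome 9, 4417893 to 4796234, minus strand, 19 counted exons) encodes GluA4, found mostly in interneurons in the cortex. It measured 136, 151, 149.8 and 150.2 CPM in WT, 132, 133, 128 and 137 in MUT and 135, 129, 124 and 141 in KO. WT replicate 1 lay among the null libraries and the other 3 WT libraries above all of them. KO differed from WT by -0.14 (log2, SE 0.05, edgeR adjusted p = 0.183) and MUT by -0.13 (SE 0.06, adjusted p = 0.434). Without WT replicate 1 both values were -0.20, and that of KO passed (adjusted p = 0.0349 in KO and 0.0637 in MUT), and without MUT replicate 3 the MUT value was -0.08. Adding age to the model beside sex left -0.02 (adjusted p = 0.956).

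Gria2 (Entrez 14800, chromosome 3, 80684936 to 80802791, minus strand, 17 counted exons) encodes GluA2, the subunit that controls calcium entry. It measured 944, 917, 844 and 882 CPM in WT, 756, 861, 895 and 901 in MUT and 847, 843, 752 and 801 in KO. The groups overlapped, with the lowest values in MUT replicate 1 and KO replicate 3, which were also 2 of the 3 libraries high in choroid plexus markers; the part of those markers in the values was not tested. Fold changes were small: -0.14 on the log2 scale in KO (SE 0.06, edgeR adjusted p = 0.279), beside -0.05 in MUT (SE 0.07, adjusted p = 0.809). Without WT replicate 1 the KO value was -0.06 (adjusted p = 0.58).

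Gria1 (Entrez 14799, chromosome 11, 57011618 to 57330244, plus strand, 18 counted exons) encodes GluA1, whose delivery to synapses accompanies long-term potentiation and whose transcript is high in hippocampus. It measured 528, 447, 437 and 470.2 CPM in WT, 359, 541, 666 and 522 in MUT and 560.15, 507, 468 and 465 in KO. MUT held both the lowest library (replicate 1) and the highest (replicate 3) of the 12. The log2 fold change was 0.12 in KO (95% interval -0.20 to 0.44, edgeR adjusted p = 0.731) and 0.21 in MUT (-0.12 to 0.55, adjusted p = 0.639). Single libraries moved both: without WT replicate 1 they were 0.31 and 0.44, without MUT replicate 3 the MUT value was 0.02 and without MUT replicate 1 it was 0.32, and without WT replicate 3 or KO replicate 1 the KO value was 0.07 or 0.08. Hippocampal markers were lowest in MUT replicate 1 (summed 103 CPM) and second highest in MUT replicate 3 (262 CPM). On the centred list level, the mean log2 CPM of the markers around each marker's own mean, WT replicates 2, 3 and 4 were lowest (-0.94, -1.20 and -0.88), with MUT replicate 1 at -0.30 and MUT replicate 3 at 1.18. With that level as a term, an alternative added after seeing the data, the Gria1 values were -0.19 in KO and -0.17 in MUT, so both signs turned. Both also turned with sex and age as terms (-0.23 in KO and -0.08 in MUT). The same held in animals under 310 days (-0.24 and -0.11) and in libraries labelled female (-0.18 and -0.15), each with WT replicate 1 as the only WT library. With the striatal list level as a term they were -0.03 and 0.07. The part of hippocampal tissue was not tested.

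Among the NMDA subunits, Grin1 varied least and Grin2a and Grin2b most. Grin1 (Entrez 14810, chromosome 2, 25291177 to 25319163, minus strand, 22 counted exons) encodes the subunit that binds the co-agonist glycine or D-serine. It measured 719, 730.3, 823 and 723 CPM in WT, 666, 716, 706 and 672 in MUT and 708, 724, 704 and 697 in KO. WT replicate 3 stood above all others. The 4 MUT libraries lay below the 4 WT libraries, an order that 3.72% of all genes tested showed downward in MUT. The log2 fold change was -0.09 in MUT (SE 0.05, 95% interval -0.20 to 0.02, edgeR adjusted p = 0.539) and -0.07 in KO (SE 0.05, -0.17 to 0.04, adjusted p = 0.5). On the log2 CPM scale its SD over 12 libraries was 0.08, at the 16.54 percentile of genes tested.

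Grin2a (Entrez 14811, chromosome 16, 9577710 to 9992533, minus strand, 12 counted exons) encodes GluN2A, the partner that predominates in the adult cortex. It measured 10.1, 5.01, 4.30 and 5.07 CPM in WT, 7.06, 10.8, 11.9 and 7.29 in MUT and 4.52, 4.40, 4.27 and 3.69 in KO, from 66 to 207 reads a library. All 4 MUT libraries lay above all 4 KO libraries, an order that 3.37% of all genes tested showed upward in MUT. WT replicate 1 lay with the MUT libraries and the other WT libraries with or just above KO. MUT exceeded KO by 1.10 on the log2 scale (SE 0.27, 95% interval 0.50 to 1.70, unadjusted p = 0.0018, edgeR adjusted p = 0.717). The difference passed the threshold in 4 of 31 alternatives: with sex and age as terms (1.27, adjusted p = 0.0401), in animals under 310 days (1.21, 0.00942), with only the 2 groups compared (1.20, 0.0105) and without WT replicate 1 (1.21, 0.0143). It kept its sign in all 31 (adjusted p = 0.00942 to 1), from 0.75 without MUT replicate 3 to 1.41 in libraries labelled male. With the hippocampal list level as a term the difference from KO was 0.98 (adjusted p = 0.274). Within MUT, replicates 2 and 3 were highest in both that list and Grin2a. KO replicate 1 had the highest hippocampal sum of the 12 libraries (283 CPM) and less Grin2a than any MUT library. On the centred list level KO replicate 1 (0.88) lay between MUT replicates 2 (0.83) and 3 (1.18). The part of hippocampal tissue in the Grin2a difference was not tested. Against WT, KO differed by -0.55 (SE 0.28, adjusted p = 0.331) and MUT by 0.55 (SE 0.27, adjusted p = 0.489). Without WT replicate 1 they were -0.02 in KO and 1.19 in MUT (adjusted p = 0.966 and 0.00433), and without MUT replicate 3 the MUT value was 0.17 (adjusted p = 0.969).

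Grin2b (Entrez 14812, chromosome 6, 135729795 to 136173511, minus strand, 15 counted exons) encodes GluN2B, the partner that predominates early in development and persists in the adult forebrain. It measured 64.2, 22.2, 25.5 and 24.5 CPM in WT, 35.5, 43.1, 66.8 and 86.3 in MUT and 44.5, 38.4, 33.8 and 43.1 in KO. WT replicate 1 lay among the highest MUT libraries, and the other 3 WT libraries lay below all 8 null libraries. The log2 fold change was 0.21 in KO (95% interval -0.67 to 1.09, edgeR adjusted p = 0.826) and 0.67 in MUT (-0.23 to 1.56, adjusted p = 0.575). MUT differed from KO by 0.46 (95% interval -0.42 to 1.33, adjusted p = 0.988). Without WT replicate 1 the values against WT were 0.82 in KO and 1.40 in MUT (adjusted p = 0.162 and 0.0605), and in animals under 310 days, where WT replicate 1 is the only WT library, they were -0.78 and -0.21 (adjusted p = 0.726 and 0.961). Without MUT replicate 3 the MUT value was 0.33 against WT and 0.13 against KO. Leaving out single other WT or KO libraries moved the KO value between 0.08 and 0.34, and leaving out MUT replicate 4 or KO replicate 3 moved the difference of MUT from KO to 0.26 or 0.30. The largest library held 3.88 times the CPM of the smallest for Grin2b and 3.22 times for Grin2a, and their SDs of 0.60 and 0.58 lay at the 96.36 and 95.99 percentiles of genes tested. On the centred list level, WT replicate 1 was highest of the WT libraries in hippocampal markers (-0.15, against -0.94, -1.20 and -0.88). It was lowest of them in endothelial (-0.24) and in pericyte and smooth muscle markers (-0.23). WT replicate 1 thus differs from the other WT libraries in age, in labelled sex and in striatal, hippocampal and vascular markers. These cannot be told apart within WT.

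**Figure D3:**
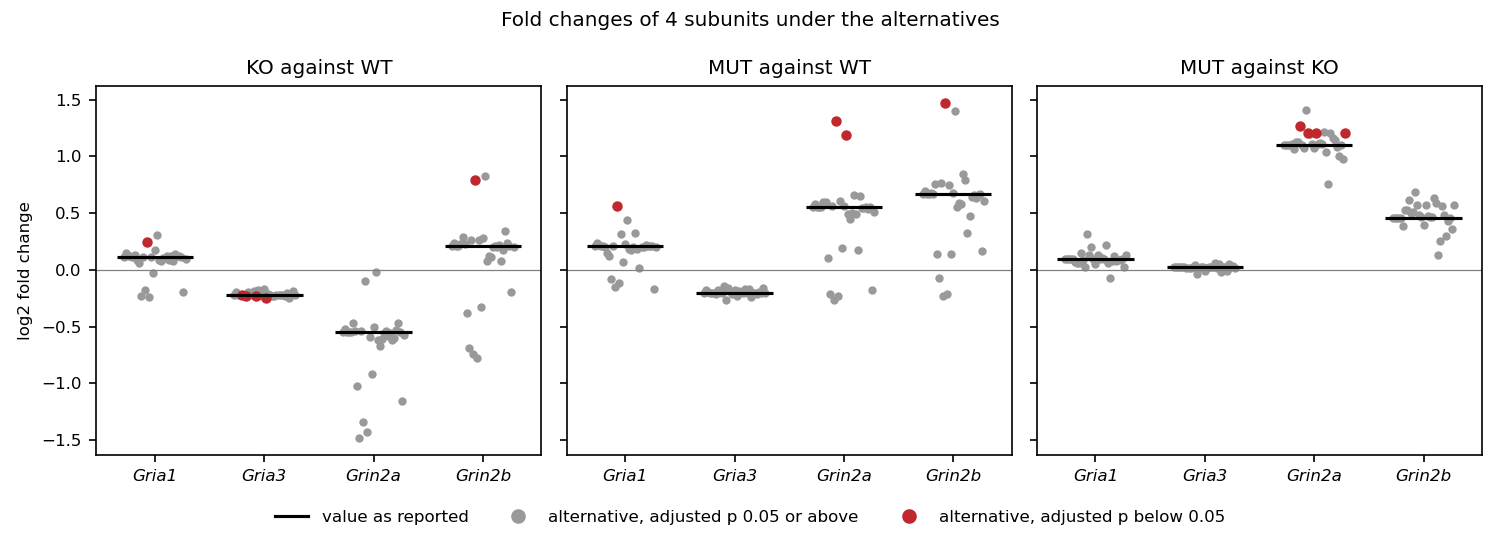
Log2 fold change of Gria1, Gria3, Grin2a and Grin2b in each comparison under 31 alternative analyses (points) and as reported (black line); red points passed an adjusted p of 0.05. Gria3 stayed below 0 in both comparisons with WT, Grin2a stayed above 0 in MUT against KO, and Grin2b fell on both sides of 0 against WT.

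Grin2d (Entrez 14814, chromosome 7, 45832483 to 45866681, minus strand, 12 counted exons) encodes GluN2D, found in the adult cortex mainly in interneurons. Its libraries ranged from 16.8 to 18.4 CPM in WT, 17.1 to 22.01 in MUT and 15.4 to 23.2 in KO. The 2 highest were KO replicate 3 and MUT replicate 1, both high in choroid plexus markers, while WT replicate 4, the third such library, had 17.7 CPM, inside the WT range. The log2 fold change was 0.02 in KO and -0.02 in MUT (95% intervals -0.20 to 0.24 and -0.25 to 0.21, edgeR adjusted p = 0.94 and 0.961).

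The 2 kainate subunits overlapped between all 3 groups. Grik2 (Entrez 14806, chromosome 10, 49099463 to 49788754, minus strand, 18 counted exons) encodes GluK2, which can form channels by itself. Its libraries ranged from 42.3 to 61.6 CPM in WT, 43.9 to 51.2 in MUT and 46.0 to 50.7 in KO, with WT replicate 4 alone above 51.2. Grik5 (Entrez 14809, chromosome 7, 25009849 to 25072369, minus strand, 20 counted exons) encodes GluK5, a high-affinity subunit that needs a partner such as GluK2. Its libraries ranged from 263.7 to 299.6 CPM in WT, 233 to 289.8 in MUT and 262 to 297 in KO, with MUT replicate 1 alone below 262. The log2 fold changes in KO were -0.05 for Grik2 and 0.03 for Grik5 (95% intervals -0.26 to 0.16 and -0.13 to 0.18, edgeR adjusted p = 0.84 and 0.876). In MUT both were -0.04 (95% intervals -0.26 to 0.19 and -0.20 to 0.13, adjusted p = 0.921 and 0.888).

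**Figure D4:**
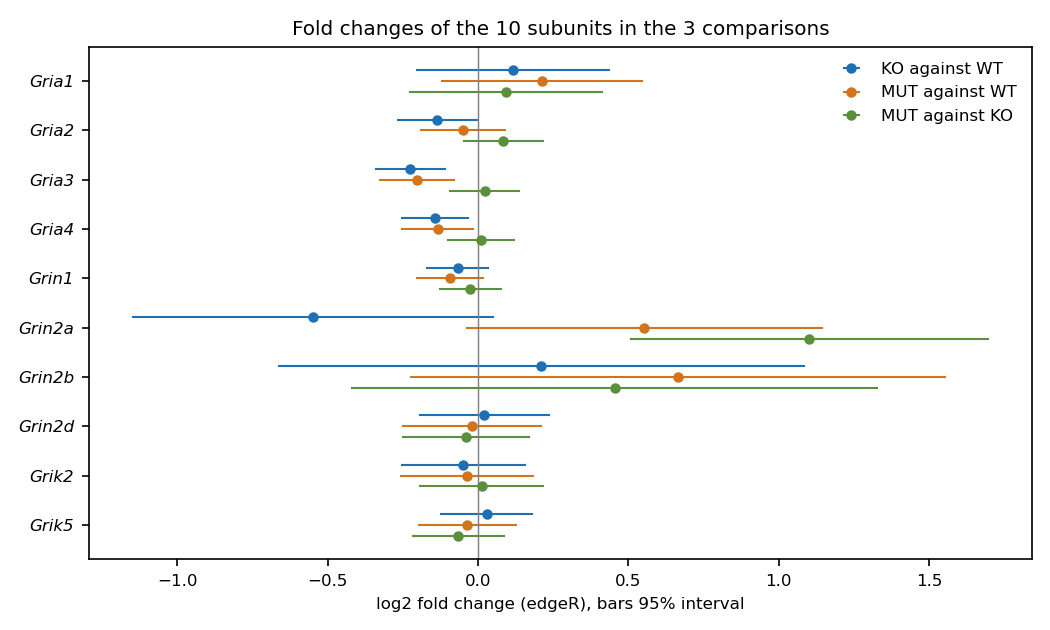
Log2 fold change of each subunit in the 3 comparisons, with 95% intervals from the edgeR model. The intervals of Gria3 and Gria4 lie below 0 in both comparisons with WT, that of Gria2 lies below 0 in KO against WT, and that of Grin2a above 0 in MUT against KO, before adjustment over all genes, and the intervals of Grin2a and Grin2b are the widest.

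Subunit balance was tested as log2 ratios of CPM within a library, which do not depend on library scaling. None of 21 tests (7 ratios in 3 comparisons) passed after Benjamini-Hochberg adjustment. With 4 libraries against 4 the exact two-sided permutation test cannot go below p = 0.0286. A ratio at that floor passes adjustment over 21 tests only if most of the others reach it too. No conclusion is drawn from the lack of a pass. Gria1/Gria2 was -0.84, -1.04, -0.95 and -0.91 in WT, and -0.60, -0.73, -0.68 and -0.78 in KO. Every KO library lay above every WT library, with a mean difference of 0.23 (exact permutation p = 0.0286, adjusted 0.3). Grin2a/Grin2b was -2.65, -2.12, -2.54 and -2.25 in WT and -3.27, -3.09, -2.95 and -3.51 in KO. Every KO library lay below every WT library here, WT replicate 1 included, with a difference of -0.82 (exact permutation p = 0.0286, adjusted 0.3). The Grin2a/Grin2b ratio in MUT was -2.31, -1.99, -2.48 and -3.54, with replicate 4 alone below the WT range. The other 19 tests had exact permutation p-values of 0.0857 or more.

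Auxiliary proteins of AMPA and kainate receptors contained the only called gene among 5 lists of related genes. Frrs1l, an endoplasmic reticulum protein needed to assemble AMPA receptors, fell in KO. It measured 205, 238, 214 and 246 CPM in WT, 165, 177, 201 and 200.1 in MUT and 159.7, 155, 165 and 171 in KO, so no KO or MUT library reached the WT range. Of all genes tested, 4.82% lay below WT without overlap in KO and 3.72% in MUT. KO differed from WT by -0.46 (log2, SE 0.07, edgeR adjusted p = 0.0341), and MUT by -0.25 (SE 0.08, adjusted p = 0.393). MUT differed from KO by 0.21 (adjusted p = 0.753). The KO call held in 14 of 31 alternatives (adjusted p = 6.19e-06 to 0.774 over all 31). It was lost with age as a term (-0.31, adjusted p = 0.539, with sex) and with the replicate number as a block (0.0606). The striatal or hippocampal list level as a term also removed the call (0.179 and 0.303). So did comparing only the 2 groups (0.14) and leaving out the 3 libraries high in choroid plexus markers (0.09). Frrs1l was not called in animals under 310 days (-0.34) or in libraries labelled female (-0.29), each with WT replicate 1 as the only WT library. Nor was it called without any of WT replicates 2 and 4, MUT replicates 2, 3 and 4 or KO replicates 1, 2 and 3 (adjusted p = 0.0547 to 0.199). The other 17 of the 18 genes of this list were not called in KO, among them the kainate receptor partners Neto2 (-0.35, adjusted p = 0.0503) and Neto1 (-0.38, adjusted p = 0.07), each without overlap between KO and WT.

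The other lists gave no call in KO against WT. The metabotropic receptors, G protein-coupled receptors for glutamate, had 7 of 7 values below 0 and a median of -0.21, and Grm6 was not tested (at most 2 reads). Postsynaptic scaffold and trafficking genes had 21 of 24 below 0 and a median of -0.09, glutamate transporters 4 of 6 and -0.08, and the RNA editing enzymes 2 of 3 and -0.01. The auxiliary list had 12 of 18 below 0 and a median of -0.13. Over all genes tested 48.7% lay below 0. Markers of other cell types moved in the same comparison. The 8 oligodendrocyte markers, all tested and none at 0, were all above 0 in KO (median 0.31, none called, 7 with an unadjusted p under 0.05) and summed to 3073 to 4348 CPM in WT and 4277 to 5138 in KO. The 14 tested striatal markers were all below 0 (median -1.33), none of them called. Of the 10 inhibitory neuron markers 7 were below 0, and of the 12 excitatory neuron markers 8 (both medians -0.08, none called). The 8 hippocampal markers were all above 0 (median 0.81). All 6 endothelial and all 7 pericyte and smooth muscle markers were below 0 (medians -0.21 and -0.29), and none of these 3 lists held a call. Of the 8 microglia markers 6 were above 0, and 1 was called as higher in KO. The part of these markers in the list values was not tested. In MUT against WT no gene of these lists was called, and 6 of 7, 22 of 24, 4 of 6, 2 of 3 and 14 of 18 values lay below 0 in the same order of lists, against 49% of all genes. Between MUT and KO none was called and the list medians lay between -0.00436 and 0.07. Adarb1, the enzyme that edits the Gria2 transcript at the site controlling calcium entry, measured 269 ± 30.3 CPM in WT, 237 ± 10.3 in MUT and 226 ± 17.8 in KO (log2 fold change -0.26 in KO, edgeR adjusted p = 0.14).

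The genes most like a subunit across libraries were those whose log2 ratio to it had the smallest SD over the 12 libraries. For Gria2 these were Abi2, Pls3 and Pgm2l1 (SD 0.04, 0.05 and 0.05). Abi2 belongs to a complex that drives actin assembly. For Grin1 they were Sgsm2, Vps8 and App (SD 0.03, 0.03 and 0.04), of which App encodes the amyloid precursor protein. For Grik2 they were Nkain2, Ppp1r2 and Gsr (SD 0.06, 0.07 and 0.08). Within the 10 subunits, Gria3 and Gria4 were the closest pair (SD 0.07).

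Other genes, chosen after their values were seen, were close to Gria1 or Grin2a. Cacng8 (TARP γ-8), an AMPA receptor auxiliary protein abundant in hippocampus, was closest to Gria1 of all genes tested (SD 0.08), and Cnih2, which binds AMPA receptors as well, ranked 5 (SD 0.09). Other auxiliary genes did not follow Gria1: Cacng3 ranked 7063, Cacng2 10039, Frrs1l 10574 and Shisa6 13298. Cacng8 measured 64.0 CPM in MUT replicate 1 and 121 in MUT replicate 3, the libraries with the lowest and highest Gria1. That likeness follows from the choice of Cacng8 by its closeness to Gria1 in these libraries. Kcnq3, a subunit of the M-current potassium channel, and Erbb4, a neuregulin receptor, were closest to Grin2a (SD 0.19 and 0.22). Both were higher in every MUT library than in every KO library (log2 fold change 0.78 and 0.74, edgeR adjusted p = 0.717 and 0.725), and WT replicate 1 lay with MUT in both. Of all genes tested, 3.37% showed that order of MUT and KO. Kcnq3 and Erbb4 were picked by closeness to Grin2a over the same 12 libraries, so the shared pattern follows from the choice. Erbb4 rests on 32 to 75 reads a library.

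**Figure D5:**
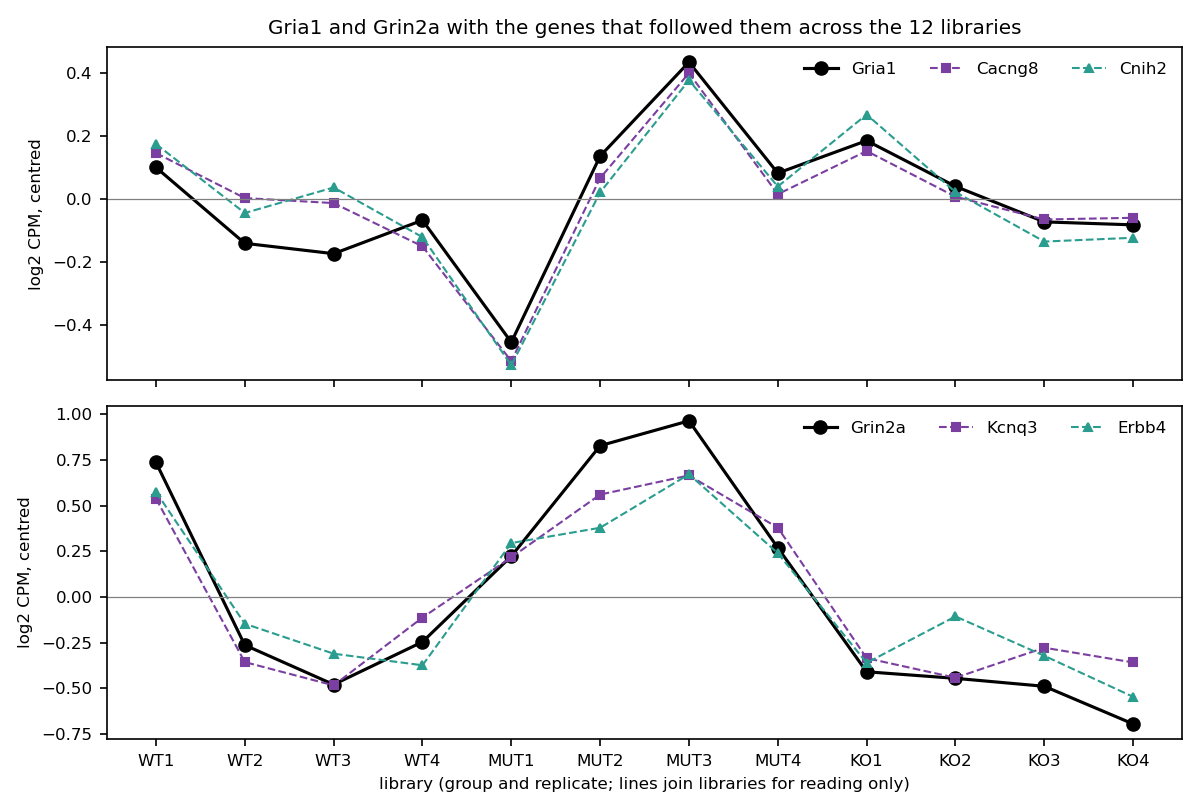
Centred log2 CPM of Gria1 with Cacng8 and Cnih2 (top) and of Grin2a with Kcnq3 and Erbb4 (bottom) in the 12 libraries; lines join libraries for reading only. The upper genes are lowest in MUT replicate 1 and highest in MUT replicate 3, and the lower genes are high in WT replicate 1 and all MUT libraries. The companion genes were chosen for following Gria1 or Grin2a in these libraries.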

How the data were processed

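Per the labels' protocols, total RNA of mouse cortex went into strand-preserving NEBNext libraries. The authors deposited raw counts per gene for 12 libraries with exon coordinates and lengths, and per the file headers the layout is that of featureCounts. Build mm10, R 4.1.2 and DESeq2 1.34.0 are named in the submitters' processing notes. Aligner and strand counting: not given in the sources used here. Antisense and overlapping genes may therefore share reads.

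Counts were filtered with filterByExpr (minimum count 10, minimum total 15, 4 libraries), scaled by TMM and fitted with group and labelled sex in edgeR 4.0.16 (R 4.3.3; robust quasi-likelihood F test, 8 residual degrees of freedom). P-values were adjusted by Benjamini-Hochberg over 15298 genes with a threshold of 0.05. Age was not a term because 3 of 4 WT animals and no other were 375 days old. The test was checked on simulated counts. No pair of libraries agreed within sampling noise (chi-square divided by its degrees of freedom was at least 3.46 in 66 pairs). Ratios used log2 CPM with a prior count of 2 and exact permutation tests.

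The 10 subunits, the gene lists and the markers were chosen with earlier results of these data known. Named were all 10 subunits, up to 4 called genes of each list, and the 3 genes most like Gria2, Grin1 and Grik2, predicted gene models left out. Alternatives were other scalings (RLE, total counts, a length trend removed), other low-count filters (none, or at least 1 CPM in 4 libraries), DESeq2 1.42.0, limma-voom (limma 3.58.1), other covariates (no sex, age, the striatal list level, replicate number), subsets by labelled sex, age or choroid plexus markers, the 2 compared groups alone, and leaving out every library in turn. Some results of the lists and markers are not reported here.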

Additional observations from a re-analysis of the deposited data

Results flagged for a closer look

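Of 51 groups of 4 values screened (a gene or ratio within a genotype), 6 held a library far from the others. Chance flags about 1 in 20 independent groups. The ratios use the same genes as the other groups, so the groups are not independent and the 6 cannot be set against that rate. In WT, replicate 1 stood apart in 5 of these 6. It measured 10.1 CPM for Grin2a and 64.2 CPM for Grin2b, above the other 3, and 136 CPM for Gria4, below them. Its log2 ratio of Grin2d to Grin2b was -1.85, below the others, and its log2 ratio of Grin2b to Grin1 was -3.48, above them. Both ratios contain Grin2b, so they are not separate from the Grin2b flag. In Grin1, WT replicate 3 stood above the rest with 823 CPM. WT replicate 1 was also the only WT library of 287 days and the only one labelled female. It was the lowest of the 4 in striatal markers and the highest in hippocampal markers.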

How the results depend on the processing

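Results were recomputed under 31 alternatives, of which 2 (no robust fit, the hippocampal list level as a term) were chosen after seeing the data. Of 30 subunit fold changes, 13 kept their sign in all 31 and 17 did not. The number of subunits called in KO against WT, 0 as reported, was 1 with DESeq2 and 1 without the sex term (Gria3 in both, among 647 and 294 genes called in all), 3 in libraries labelled male (Gria1, Gria3 and Grin2b, among 1163), and 0 to 2 when each library was left out, with 2 (Gria3 and Gria4) without WT replicate 1. In MUT against WT it was 3 in libraries labelled male (Gria1, Grin2a and Grin2b, among 311 genes in all, with MUT replicate 3 as the only MUT library) and 0 to 1 with each library left out, with 1 (Grin2a) without WT replicate 1. In MUT against KO it was 1 (Grin2a) with sex and age as terms, 1 in animals under 310 days and 1 with only the 2 groups compared, among 2, 37 and 39 genes called in all, and 0 to 1 with each library left out, again without WT replicate 1 (5 genes in all). The cause was not tested. No ratio passed in any alternative in which the exact test could be run. As in the reported test, too few arrangements exist for a lone ratio to pass after adjustment.

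Same-numbered libraries showed no common deviation (correlations of deviations from group means -0.377 to 0.289, and 2 of 12 comparisons best with their own number). With 4 libraries a group this check cannot exclude a pairing. Replicate numbers were not used as pairs in the reported tests. With the replicate block, 0 subunits were called in each comparison, and the genes called over all genes were 2 in KO against WT (75 without it), 2 in MUT against WT and 1 in MUT against KO. Over all alternatives the genes called ranged from 1 (striatal list level as a term, among others) to 1620 (without WT replicate 1) in KO against WT, from 2 to 1030 (without WT replicate 1) in MUT against WT, with 52 in DESeq2, and from 1 to 39 (only the 2 groups compared) in MUT against KO, with 15 in DESeq2. Depth limits Grin2a most, at 66 to 207 reads a library.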

Other observations

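Of the 6 glutamate transporters counted above, Slc17a6 and Slc17a8 had no overlap between KO and WT. Of all 15298 genes tested, 656 lay higher in KO without overlap and 737 lower. Slc17a6 (VGLUT2), the vesicular transporter of thalamic and other subcortical neurons, measured 29.8 ± 6.59 CPM in WT and 44.1 ± 10.3 in KO (n = 4 each), without overlap between the libraries (log2 fold change 0.48, edgeR adjusted p = 0.337). Slc17a8 (VGLUT3), found in small neuron populations, measured 4.61 ± 1.10 CPM in WT and 3.04 ± 0.181 in KO, also without overlap and in the other direction (-0.54, adjusted p = 0.184). Both were chosen after their values were seen. Of the 10 subunits, Grin2a had the lowest adjusted p for a genotype difference that depends on labelled sex. The log2 fold change of MUT against WT was lower by 1.58 in libraries labelled female than in those labelled male (an edgeR interaction term). WT replicate 1 was the only WT library labelled female and MUT replicate 3 the only MUT library labelled male. The value therefore rests on a single library in each of these groups, and no conclusion is drawn from it.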
